A study of Mus musculus with 4 samples.

Results

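The AMPA and kainate receptor subunit genes are the family described here: Gria1, Gria2, Gria3 and Gria4, which encode the AMPA receptor subunits, and Grik1, Grik2, Grik3, Grik4 and Grik5, which encode the kainate receptor subunits. They were chosen by name, and all 9 were found among the 56748 genes of the deposited single-nucleus RNA count tables from mouse hippocampus. AMPA and kainate receptors are glutamate-gated ion channels, each put together from several subunits, and AMPA receptors carry most of the fast excitatory current at hippocampal synapses. The subunits present set how a channel behaves. An AMPA receptor that holds the edited form of the Gria2 subunit passes little calcium, Grik1, Grik2 and Grik3 can form kainate channels on their own, and Grik4 and Grik5 form channels only together with those.

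The study asked how repeated social defeat (RSD), a stress in which an aggressive male enters the home cage of the experimental mice, acts on hippocampal neurons, and whether microglia and the neuronal interleukin-1 receptor take part. Hippocampi of 3 male mice were pooled for each of 8 conditions, nuclei were isolated 14 h after the last defeat, and RSD ran for 2 h a night on 6 consecutive nights. The Control Vehicle, RSD Vehicle, Control PLX5622 and RSD PLX5622 pools were C57BL/6 mice, bought at 5 to 7 weeks of age, on vehicle chow or on chow with 1200 mg/kg PLX5622, an inhibitor of the colony-stimulating factor 1 receptor that depletes microglia, given from 7 days before the defeats. The Control WT, RSD WT, Control KO and RSD KO pools came from an in-house line, with no age given in the sources used here: the WT mice were IL-1R1+/+ without Cre, and in the KO mice Vglut2-driven Cre removed IL-1R1 from neurons that use or have used this glutamate transporter. Controls of all 4 arms (vehicle, PLX5622, wild type and knockout) were left undisturbed. Each condition is 1 pool, so no condition has a replicate of its own. The 4 pairs of an RSD and a control pool were the replicates for RSD. P-values set a difference against the spread left between these pools once arm and RSD are fitted, and the fit draws the spread of each gene toward that of other genes. An RSD effect that differs with diet or genotype therefore counts as spread.

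Of 57350 barcodes, 516 had over 20% mitochondrial UMIs (unique molecular identifiers, 1 per captured RNA molecule), and 56834 nuclei were kept. Total UMIs per pool ran from 7534594 to 58081835. The median per nucleus was 598 UMIs in the Control PLX5622 pool and 628 in the RSD PLX5622 pool, against 1325.5 to 5012 in the other 6 pools. No barcode was shared between pools. Clustering without the 9 receptor genes gave 32 clusters, of which 20 were named from markers and 12, with 21348 nuclei, were not. The unnamed share was 17.06% to 57.72% of the nuclei of a pool. Some unnamed clusters came mostly from certain pools. A cluster of 1354 nuclei, with its best marker score for CA1, held 1167 from the Control PLX5622 pool. Another of 2801 nuclei, with its best score for CA2/3 and then CA1, held 970 from the RSD Vehicle and 1380 from the RSD PLX5622 pool. Il1r1 stood at 11.3 and 8.82 CPM (counts per 1000000 UMIs) in dentate gyrus granule-like nuclei of the Control KO and RSD KO pools, at 62.0 and 29.1 CPM in the Control WT and RSD WT pools, and at 52.6 to 85.5 CPM in the other 4. Microglia-like nuclei made up 0.163% and 0.156% of the PLX5622 pools and 2.07% to 3.24% of the others.

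The 9 classes with 20 or more nuclei in every pool and 30644 nuclei in all carry the values that follow. They are dentate gyrus (DG) granule-like (10049 nuclei), CA1-like (5677), CA2/3-like (4356), Lhx6 interneuron-like (3047), Adarb2 interneuron-like (1716), cortical or subicular excitatory-like (1168), oligodendrocyte-like (2042), oligodendrocyte precursor-like (1232) and astrocyte-like (1357), and each short name below stands for such a "-like" class. Lhx6 marks interneurons of the Sst and Pvalb kinds, and Adarb2 those of the Vip and Lamp5 kinds. In the Adarb2 class here Vip was among the leading genes, while Lamp5 was the lowest marker at 4.94 CPM. Every marker of each class was detected in it, but most markers of other classes were detected there too. In the cortical or subicular excitatory class the lowest marker, Igfn1, stood at 0.955 CPM. The CA2/3 markers summed to a mean of 1157 CPM in its control pools, against 1394 CPM in those of the CA2/3 class. The DG class joins 2 clusters, and the smaller took 66.6% and 73.7% of it in the PLX5622 pools but 8.33% to 45.7% in the other 6. Of the CA2/3 class, the smaller of 2 clusters held 27.1%, 38.1% and 21.7% in the Control PLX5622, RSD Vehicle and RSD PLX5622 pools, and 3.78% to 11.7% in the other 5.

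The 9 genes share a short stretch of the channel pore, and it is shown here because the Gria2 site in it is the place where RNA editing sets calcium entry. The 45 bases are from the mouse GRCm39 genome with GENCODE annotation, 5′ to 3′ on the coding strand of each gene, and the capitals mark the codon of the glutamine/arginine (Q/R) site.
Gria1: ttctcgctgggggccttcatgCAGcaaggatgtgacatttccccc (chr11:57133899-57133943, plus strand, exon 11)
Gria2: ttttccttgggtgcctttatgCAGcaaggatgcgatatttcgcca (chr3:80614197-80614241, minus strand, exon 11)
Gria3: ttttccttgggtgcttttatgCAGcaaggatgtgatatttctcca (chrX:40699121-40699165, plus strand, exon 11)
Gria4: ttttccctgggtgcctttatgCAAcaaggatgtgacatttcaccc (chr9:4464116-4464160, minus strand, exon 12)
Grik1: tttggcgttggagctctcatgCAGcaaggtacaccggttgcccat (chr16:87737409-87737453, minus strand, exon 12)
Grik2: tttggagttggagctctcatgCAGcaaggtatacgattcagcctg (chr10:49120404-49120448, minus strand, exon 13)
Grik3: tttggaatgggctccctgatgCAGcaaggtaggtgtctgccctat (chr4:125584979-125585023, plus strand, exon 12)
Grik4: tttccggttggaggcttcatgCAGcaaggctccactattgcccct (chr9:42458898-42458942, minus strand, exon 16)
Grik5: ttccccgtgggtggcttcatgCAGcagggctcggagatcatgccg (chr7:24721901-24721945, minus strand, exon 15)

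In the genome all 9 genes carry a glutamine codon at this site, written CAG in 8 of them and CAA in Gria4. The windows lie in coding exons, but those of Grik1, Grik2 and Grik3 run past the exon end into the intron. Gria2 and Gria3 were alike at 42 of the 45 positions, Gria1 and Gria4 at 39, Grik1 and Grik2 at 35, and Grik4 and Grik5 at 31. These are not all the closest pairs, since Gria4 was also alike at 39 with Gria2 and with Gria3, and Grik4 at 32 with Grik1. Counts that include Grik1, Grik2 or Grik3 take in intron bases. They do not compare coding sequence alone, and are not on an equal footing with the counts among the other genes. The enzyme encoded by Adarb1 edits the codon in Gria2, Grik1 and Grik2 transcripts. The count tables hold UMIs per gene and carry no base calls, so how much of each transcript was edited was not measured.

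The genes differ widely in length, which bears on any comparison between them, because nuclear RNA holds introns. Grik2 spans 694.0 kb and is the longest (chr10:48970929-49664880). Grik5 spans 63.44 kb and is the shortest (chr7:24709269-24772708). The other 7 are Gria1 (chr11:56902153-57221080), Gria2 (chr3:80588757-80710538), Gria3 (chrX:40489476-40767490), Gria4 (chr9:4417604-4796326), Grik1 (chr16:87692788-88087153), Grik3 (chr4:125384202-125607966) and Grik4 (chr9:42429431-42856154). Levels in CPM are the UMIs of a gene scaled to the total UMIs of that class in that pool, and compare the same gene between classes. Shares of summed UMIs are not corrected for length, and the same shares with each gene divided by its exon length or its span follow them. Exon length here joins all annotated exons of a gene over its transcripts, and is 27.44 kb for Gria2 against 8.2 kb for Gria1.

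Gria1 had its highest levels in Lhx6 interneurons and in the principal neurons of CA1, DG and CA2/3. In Lhx6 interneurons the lowest, median and highest of the 8 pools were 4601, 5235 and 5733 CPM. CA1 held 4478, 5043 and 5529 CPM, DG held 4149, 4468 and 4691 CPM, and CA2/3 held 4186, 4425 and 4619 CPM. Neighbours among these 4 classes overlapped in their ranges, whereas all 8 pools of CA2/3 lay above every pool of the next class, astrocytes, with a mean level of 2514 CPM ± 422 (SD, n = 8 pools). Adarb2 interneurons held 2306 CPM ± 330, and cortical or subicular excitatory nuclei 1795 CPM ± 385. The Gria1 mean level in Lhx6 interneurons was 5.59 times that in oligodendrocytes, the lowest class.

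Gria2, the subunit that limits calcium entry once edited, had another order. Its level was 1239, 1494 and 1695 CPM in CA1 (lowest, median and highest pool), 1102, 1365 and 1717 CPM in DG, and 1147, 1380 and 1529 CPM in CA2/3. The interneuron classes were lower, with mean levels of 848 CPM ± 73.2 in Adarb2 and 818 CPM ± 90.0 in Lhx6 interneurons (SD, n = 8 pools). Thus Lhx6 interneurons ranked at the top for Gria1 and next to last for Gria2, and among neighbours in the Gria2 order the ranges lay apart only between Lhx6 interneurons and oligodendrocytes (363 CPM ± 97.4). Gria3 was highest in Lhx6 interneurons, at 736, 937 and 1072 CPM, and stood at a mean of 725 CPM ± 128 in CA1, 586 CPM ± 49.1 in DG, 554 CPM ± 59.0 in CA2/3 and 278 CPM ± 46.5 in Adarb2 interneurons.

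Gria4, which in adult brain is known for fast-gating AMPA receptors of interneurons, separated the neuron classes most among the AMPA genes. In Lhx6 interneurons its level was 1199, 1642 and 1933 CPM, above every pool of the next class. Adarb2 interneurons held 638, 872 and 1144 CPM. CA1 stood at 268 CPM ± 48.2 and CA2/3 at 239 CPM ± 19.0, and DG granule nuclei were below all other classes, at 154, 173 and 204 CPM. The mean level in Lhx6 interneurons was 8.99 times that in DG.

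**Figure D1:**
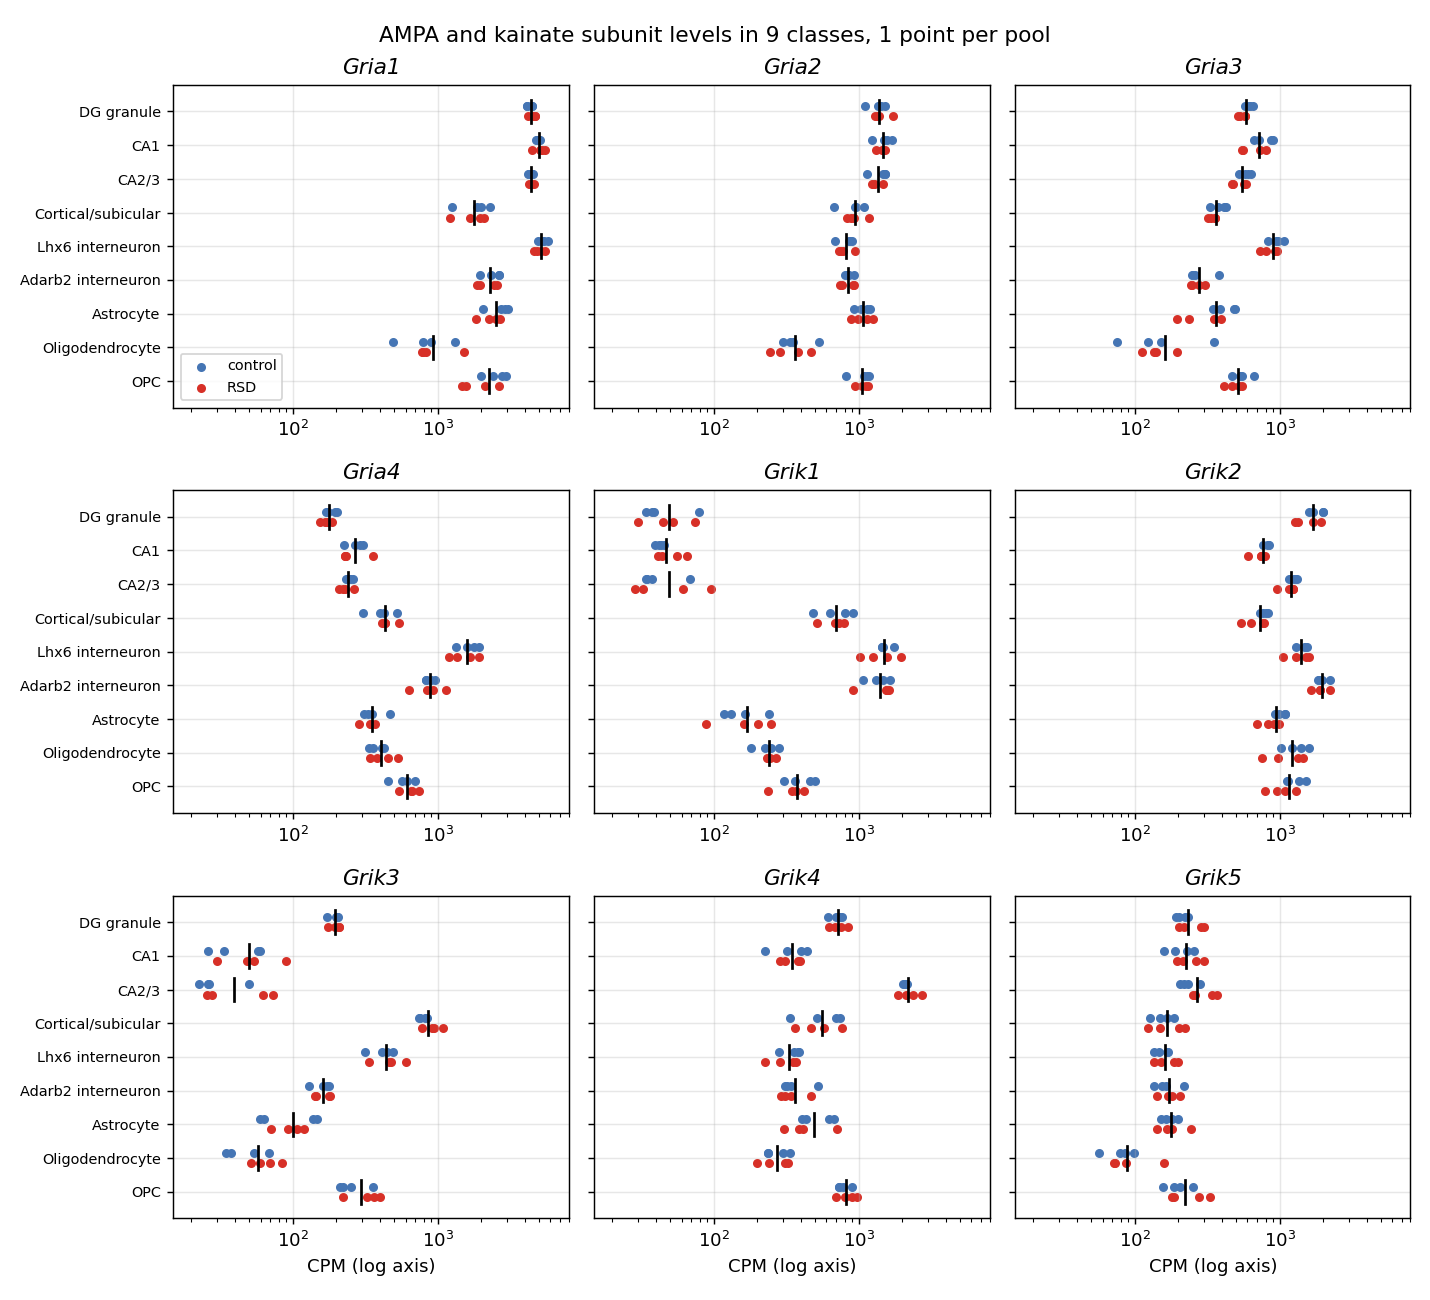
Level of each of the 9 receptor genes (CPM, log axis) in the 9 classes, 1 point per pool, blue for control and red for RSD pools, with a black tick at the mean of the 8 pools. Gria4 and Grik1 stand highest in the interneuron classes, Grik4 stands apart in CA2/3 and Grik3 in cortical or subicular excitatory nuclei, while control and RSD points mix in most rows.

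As a share of all AMPA subunit UMIs, Gria1 took 67.2% ± 2.29 in DG, 67.1% ± 1.90 in CA2/3 and 67.0% ± 2.73 in CA1 (SD, n = 8 pools), so the 3 principal classes lay within the spread between pools. Its share was 61.0% ± 2.71 in Lhx6 interneurons, 53.2% ± 4.43 in Adarb2 interneurons and 50.4% ± 6.56 in cortical or subicular excitatory nuclei. The Gria2 share was 9.63% ± 1.11 in Lhx6 interneurons, with pools from 8.01% to 11.9%, against 21.1% ± 2.47 in DG, 20.8% ± 1.64 in CA2/3 and 19.8% ± 1.72 in CA1. Adarb2 interneurons, at 19.7% ± 1.23, were on the principal cell side for Gria2. For Gria4 the 2 interneuron classes sat together, at 18.7% ± 2.31 in Lhx6 and 20.7% ± 4.43 in Adarb2 interneurons, against 2.72% to 3.65% in the principal classes. A high Gria4 share was not limited to interneurons. It was 23.2% ± 7.11 in oligodendrocytes, 14.2% ± 3.51 in oligodendrocyte precursors and 12.5% ± 3.02 in cortical or subicular excitatory nuclei. In the unnamed clusters led by Igfn1, Pdzrn3 and Rorb and by Tshz2 and Npsr1 it was 28.14% ± 7.36 and 24.35% ± 3.61. Lhx6 interneurons thus combined a low Gria2 share with a high Gria4 share, while Adarb2 interneurons had a high Gria4 share and a Gria2 share close to that of the principal classes. An unnamed cluster of 1044 nuclei led by Fgf13, Egfr and Gad2 was like the Lhx6 class in this, with a Gria2 share of 10.47% ± 0.77 and a Gria4 share of 16.78% ± 3.15. By marker score that cluster was nearest to the Lhx6 class (0.525), with the Adarb2 class next (0.452), too close for a name. Egfr and Hapln1, both on the Adarb2 marker list, were among its leading genes, while Adarb2, Vip, Npas1 and Cnr1 of that list were not. Which kind of interneuron it holds was not tested. Whether the Gria2 share of the Adarb2 class holds for all Adarb2 interneurons is thus not known.

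These shares depend on how gene length enters. For Gria1, the share in the principal classes was 82.89% to 83.46% divided by exon length and 49.83% to 50.46% divided by span, and in Lhx6 interneurons 76.94% and 53.44%, so by span the Lhx6 class was the higher. Gria2 was lower in Lhx6 interneurons than in the principal classes each way. Divided by exon length, its share was 7.32% to 7.86% in the principal classes and 3.63% in Lhx6 interneurons. Divided by the span of the gene, it was 38.9% to 40.9% and 22.05%. The Gria4 share in Lhx6 and Adarb2 interneurons was 10.77% and 13.06% divided by exon length and 13.82% and 13.49% divided by span, against 1.536% to 2.288% in the principal classes by either. Per kb of exon, Lhx6 interneurons held 633 CPM of Gria1, 88.9 CPM of Gria4 and 29.8 CPM of Gria2. These values carry the divisor, which is 27.44 kb for Gria2 and 8.2 kb for Gria1, and do not rank the genes by amount of RNA.

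Among the kainate genes, Grik1 and Grik4 had opposite class patterns. Grik1 was an interneuron gene in these data, with levels of 1016, 1456 and 1972 CPM in Lhx6 interneurons and 918, 1509 and 1654 CPM in Adarb2 interneurons (lowest, median and highest pool). All 8 pools of both classes lay above every pool of the next class, cortical or subicular excitatory nuclei, at 697 CPM ± 148. The gap was very small, with 918.0 CPM in the lowest Adarb2 pool and 915.5 CPM in the highest cortical or subicular pool. In the principal classes the mean level was 47.1 CPM ± 9.01 in CA1, 48.8 CPM ± 18.3 in DG and 49.2 CPM ± 23.9 in CA2/3. The ratio of highest to lowest class mean was 31.6, the widest of the 9 genes.

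Grik4, a subunit known from the synapses that mossy fibres make in CA3, stood at 1855, 2101 and 2728 CPM in CA2/3, with the lowest pool above every pool of any other class. Its mean level there was 2177 CPM ± 263, against 813 CPM ± 100 in oligodendrocyte precursors, 716 CPM ± 76.3 in DG, 345 CPM ± 70.2 in CA1 and 330 CPM ± 58.5 in Lhx6 interneurons. CA1 pools ran from 227 to 438 CPM, so the neighbouring fields CA1 and CA2/3 did not overlap. Grik5, the other subunit that needs a partner, varied far less. It was highest in CA2/3 as well (207, 258 and 369 CPM), but DG (233 CPM ± 40.5) and CA1 (226 CPM ± 45.7) overlapped with it.

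Grik3 was highest in the cortical or subicular excitatory class, at 738, 831 and 1095 CPM, apart from Lhx6 interneurons at 443 CPM ± 91.1. It was at 196 CPM ± 14.4 in DG, 49.9 CPM ± 20.6 in CA1 and 39.2 CPM ± 19.7 in CA2/3. Grik2 had the smallest ratio of highest to lowest mean over all 9 classes, 2.66, with every neighbour in its order overlapping; both ends of that ratio are neuron classes, and among the neuron classes alone Grik5 and Gria2 were more even. It stood at 1651, 1885 and 2240 CPM in Adarb2 interneurons and at 1272, 1696 and 1996 CPM in DG, and was lowest in CA1 (770 CPM ± 79.6) and in cortical or subicular excitatory nuclei (732 CPM ± 97.0).

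The make-up of kainate UMIs followed from this. Grik4 took 58.1% ± 3.27 of them in CA2/3, with pools from 52.9% to 63.8%, against 23.8% ± 3.44 in CA1 and 25.0% ± 3.58 in DG (SD, n = 8 pools). Grik2 led in DG, at 58.3% ± 6.45, and in CA1, at 53.8% ± 6.88, and took 32.2% ± 3.14 in CA2/3. In Lhx6 interneurons Grik1 took 38.5% ± 3.70 and Grik2 36.8% ± 1.99, and in Adarb2 interneurons Grik1 took 34.3% ± 4.49 and Grik2 48.2% ± 2.19. The Grik3 share was 28.5% ± 2.84 in cortical or subicular excitatory nuclei. Which gene leads depends on length in most of these classes. Grik4 led in CA2/3 each way, with 66.8% divided by exon length and 44.85% divided by span, and Grik1 led in Lhx6 interneurons each way, with 54.8% and 33.74%. In DG and CA1, Grik2 led divided by exon length (44.21% and 39.27%), but divided by span the short gene Grik5 led (41.61% and 60.8%). In Adarb2 interneurons Grik1 passed Grik2 under both, at 52.05% against 29.29% divided by exon length and 33.13% against 26.39% divided by span. In cortical or subicular excitatory nuclei Grik1 (33.53%) passed Grik3 (27.54%) divided by exon length, while Grik3 led at 36.2% divided by span.

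**Figure D2:**
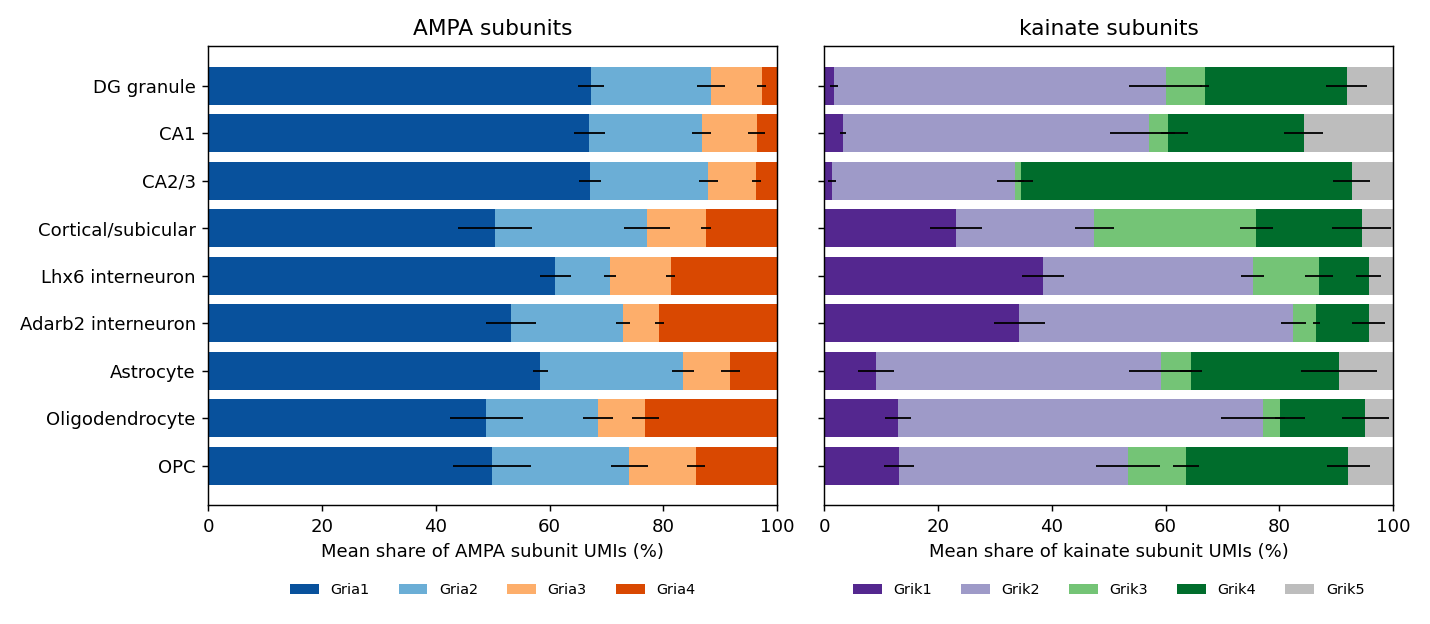
Stacked bars of the mean share (%) of each gene in the summed AMPA UMIs and in the summed kainate UMIs of each class, mean of 8 pools with SD bars. The Gria2 segment is 9.63% in Lhx6 interneurons and 19.7% to 26.7% in the other 5 named neuron classes plotted, and the Grik4 segment is 58.1% in CA2/3.

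The clusters that stayed unnamed also held these genes. A cluster of 2120 nuclei led by Rai14, Sulf1 and Col5a1 had Grik3 at 934, 1150 and 1444 CPM (lowest, median and highest pool). In the cluster led by Fgf13, Egfr and Gad2, Grik1 was at 1510, 2121 and 2403 CPM. Gria4 was at 674, 1102 and 1836 CPM in another 2468 nuclei, whose leading genes were Igfn1, Pdzrn3 and Rorb. In a cluster of 1675 nuclei led by Tshz2 and Npsr1, Gria1 was at 846, 994 and 1584 CPM.

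The glial classes need a scale, since free RNA from neurons can be counted in glial nuclei. Each mean level was therefore set against the mean of the 6 neuron classes, beside 5 neuronal reference genes (Syt1, Snap25, Rbfox3, Camk2a and Slc17a7). The reference genes stood at 57.0% to 70.5% of the neuronal mean in astrocytes, at 57.7% to 75.3% in oligodendrocyte precursors and at 25.7% to 32.4% in oligodendrocytes. A receptor gene within or below that range is not told apart from neuronal RNA here. One above it is not shown to be glial either, since only means are compared and the neuronal mean weighs the 6 classes alike. In DG, the largest class, Gria2 was at 1390 CPM against a neuronal mean of 1139 CPM, and Grik2 at 1688 against 1292 CPM. How many of all genes lie above these ranges was not counted, so standing above them is not shown to be particular to this family.

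In astrocytes, Gria2 (93.9%), Grik5 (87.3%) and Grik2 (73.0%) were above the reference range, Grik1 (27.3%) and Grik3 (34.2%) were below it, and the other 4 were at 58.4% to 66.0%. The Grik2 mean was close to the top of the range, and its pools ran from 701 to 1094 CPM. In oligodendrocytes Grik2 reached 94.4% and Gria4 67.6% of the neuronal mean, with Grik5 at 43.4%, Grik1 at 38.6% and Grik4 at 36.5%, all above the reference range. Grik2 made up 64.1% ± 7.41 of the kainate UMIs there. The 9 DG granule markers summed to 4368 to 6204 CPM in the oligodendrocyte control pools, against 3889 to 4256 CPM in those of the DG class. A scale from these markers would thus differ from that of the 5 reference genes. How much of that marker sum is neuronal RNA was not tested. Oligodendrocyte precursors had 7 of the 9 genes above the reference range, a count with no share of all genes to set beside it. These were Grik4 at 108.6%, Grik5 at 108.2%, Gria4 at 103.1%, Grik3 at 100.7%, Gria2 at 93.2%, Gria3 at 91.3% and Grik2 at 89.8%. Grik1 (60.6%) and Gria1 (58.3%) were within it.

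**Figure D3:**
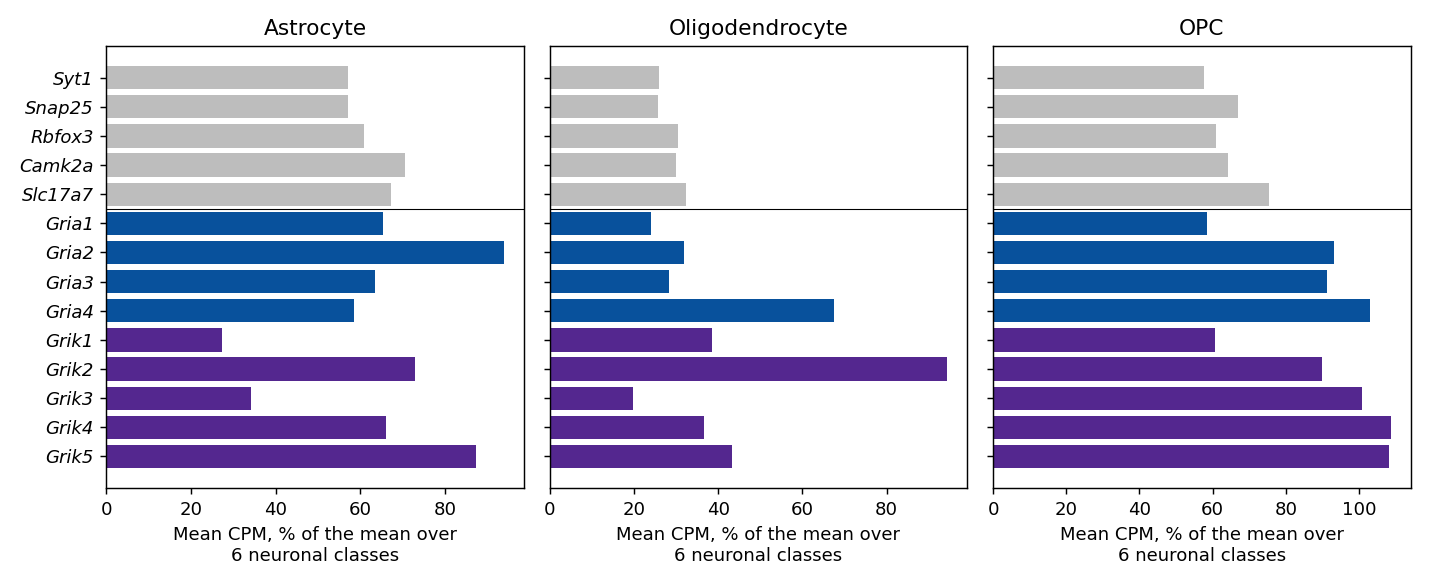
Mean CPM in astrocytes, oligodendrocytes and oligodendrocyte precursors as a percentage of the mean over the 6 neuron classes, for 5 neuronal reference genes and the 9 receptor genes. In oligodendrocytes Grik2 (94.4%) and Gria4 (67.6%) stand above the reference genes (25.7% to 32.4%), and in the precursors 7 receptor genes do. The share of all genes above the reference genes was not counted.

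AMPA and kainate channels are built with auxiliary subunits, and a list of 27 genes for these, for scaffolds and trafficking, for RNA editing and for the related delta subunits was measured beside the family; all 27 were found. Over the classes the auxiliary gene with the widest spread was Cacng4, a transmembrane AMPA regulatory protein, at 526 CPM ± 188 in oligodendrocyte precursors and 4.96 CPM ± 4.53 in DG, a ratio of 106 between class means. Cacng5, of the same protein family, followed with 26.5 CPM ± 9.35 in cortical or subicular excitatory nuclei and 1.18 CPM ± 1.31 in oligodendrocytes. The most even were Cacng7, from 123 CPM ± 22.5 in Lhx6 interneurons to 65.1 CPM ± 9.98 in CA2/3, and Prrt1, which encodes an AMPA receptor-associated protein, from 107 CPM ± 36.7 in DG to 43.9 CPM ± 18.1 in Adarb2 interneurons.

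Genes with the class pattern most like that of a receptor gene were ranked by Pearson's r of log2(mean CPM + 1) over the 9 classes, among 10585 genes, as a description in which all points of a class come from the same libraries. For Gria1 they were Akap5 (r = 0.972), Sptb (0.971) and Dlgap1 (0.964), and Akap5 and Dlgap1 encode proteins of the postsynaptic density. For Gria2 they were Dlg4 (0.985), the gene of the scaffold PSD-95, Mta1 (0.980) and Ifngr2 (0.977). For Gria3 they were Pabpc1 (0.955), Kif17 (0.942) and Sptb (0.932), and for Gria4 Ets1 (0.984), Eps15l1 (0.962) and Kctd8 (0.952). Among the kainate genes, Grik1 was closest to Alk (0.979), Lmbr1 (0.969) and Tmem65 (0.969), and Grik2 to Wdr75 (0.958), Synpr (0.947) and Gm5087 (0.894). Grik3 was closest to Lrrtm3 (0.949), Synj2bp (0.945) and Epb41 (0.930), Grik4 to Iyd (0.937), Lrp2 (0.936) and Ppp6r1 (0.916), and Grik5 to Ifngr2 (0.982), Jpt1 (0.981) and Dok6 (0.977). Iyd was also a marker used to name the CA2/3 class. Every gene named for Gria1, Gria2, Gria3, Grik4 and Grik5 was lowest in oligodendrocytes, as were these receptor genes. Their r can thus rest in large part on that class, and a shared function was not tested.

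Next, RSD was compared with control over the 4 arms. No receptor gene passed the threshold in any class: 0 of 81 gene-by-class tests had an adjusted p under 0.05 (edgeR quasi-likelihood test with the arm in the model, Benjamini-Hochberg over all genes of a class), where 0.21% of all 81943 tests did. At an unadjusted p under 0.05 there were 8 of 81 (9.88%), against 9.72% of all tests, and DESeq2 called 0, with 7 at an unadjusted p under 0.05. The median size of the RSD change was 0.142 on the log2 scale for the family and 0.182 for all genes. The smallest adjusted p, 0.106, belonged to Gria3 in astrocytes.

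Some members leaned the same way in many classes. The fitted log2 difference of RSD minus control was below 0 in 9 of 9 classes for Gria3 (-0.61 to -0.12) and for Grik2 (-0.35 to -0.06), and above 0 in 9 of 9 for Grik5 (0.02 to 0.32) and in 8 of 9 for Grik3 (-0.04 to 0.54). The classes come from the same pools and are not independent. How many of all genes lean the same way in as many classes was not counted. Counted by CPM, 13 of the 81 gene-by-class values were lower in RSD in all 4 arms (16.05%, against 8.39% of all tests), and 6 were higher in all 4 (7.41%, against 9.92%). Gria3 gave 6 of the 13 and Grik2 gave 5.

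For Gria3 in CA1, the control pools of the vehicle, PLX5622, wild type and knockout arms had levels of 724, 670, 866 and 895 CPM, and their RSD pools had 552, 560, 727 and 806 CPM. Each RSD pool was below the control of its own arm, but the groups overlapped because the arms differ. The log2 difference was -0.29 (SE 0.11), with an edgeR adjusted p of 0.238. In DG the control levels were 619, 577, 629 and 660 CPM and the RSD levels 531, 513, 579 and 579 CPM in the same order. Here too the arm differences and the RSD differences were of like size, and 4 of 4 arms were lower. In astrocytes the levels were 487, 345, 388 and 491 CPM in controls and 393, 236.5, 196 and 352 CPM after RSD (log2 difference -0.61, SE 0.17, edgeR adjusted p = 0.106). There, the summed level of the 5 neuronal reference genes ran from 3208 to 4340 CPM in controls and from 2487 to 4196 CPM after RSD, with 1 of 5 higher after RSD; the part of this in the Gria3 difference was not tested.

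Grik2 in DG stood at 1599, 1695, 1996 and 1989 CPM in the vehicle, PLX5622, wild type and knockout controls and at 1338, 1272, 1697 and 1919 CPM after RSD. All 4 arms were lower, and the knockout arm by the least. The fitted log2 difference was -0.26 (SE 0.11, edgeR adjusted p = 0.344). From control to RSD, the smaller DG cluster went from 21.8% to 45.7% of the class in the vehicle arm and from 66.6% to 73.7% with PLX5622. It went from 8.33% to 19.0% in the knockout arm and from 16.85% to 12.9% in the wild type arm. The part of this in the DG values of Grik2 and Gria3 was not tested. In CA1 the mean Grik2 level was 821 CPM in controls and 718 CPM after RSD (log2 difference -0.23, edgeR adjusted p = 0.382).

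Grik5 pointed the other way. In CA2/3 its levels were 281.7, 234.9, 206.5 and 217.5 CPM in controls and 368.8, 342.1, 253.3 and 262.5 CPM after RSD, in the same order of arms, with log2 ratios of 0.39, 0.54, 0.29 and 0.27. All 4 arms were higher, and the fitted log2 difference was 0.32 (SE 0.11, edgeR adjusted p = 0.210). Grik3 in CA2/3 had a larger fitted log2 difference, 0.54 (SE 0.20, edgeR adjusted p = 0.255), at far lower levels of 22.5 to 72.7 CPM. That value leaned on the vehicle arm, whose log2 ratio was 1.45, while the wild type arm was level at 25.8 and 25.6 CPM. Grik3 is higher in DG than in CA2/3, and the 9 DG granule markers moved with it: their summed level in CA2/3 was 162.9 to 372.4 CPM in controls and 175.0 to 763.9 CPM after RSD, with 8 of 9 higher. In the vehicle arm the smaller CA2/3 cluster also went from 6.59% to 38.1% of the class. The part of these in the Grik3 value was not tested.

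**Figure D4:**
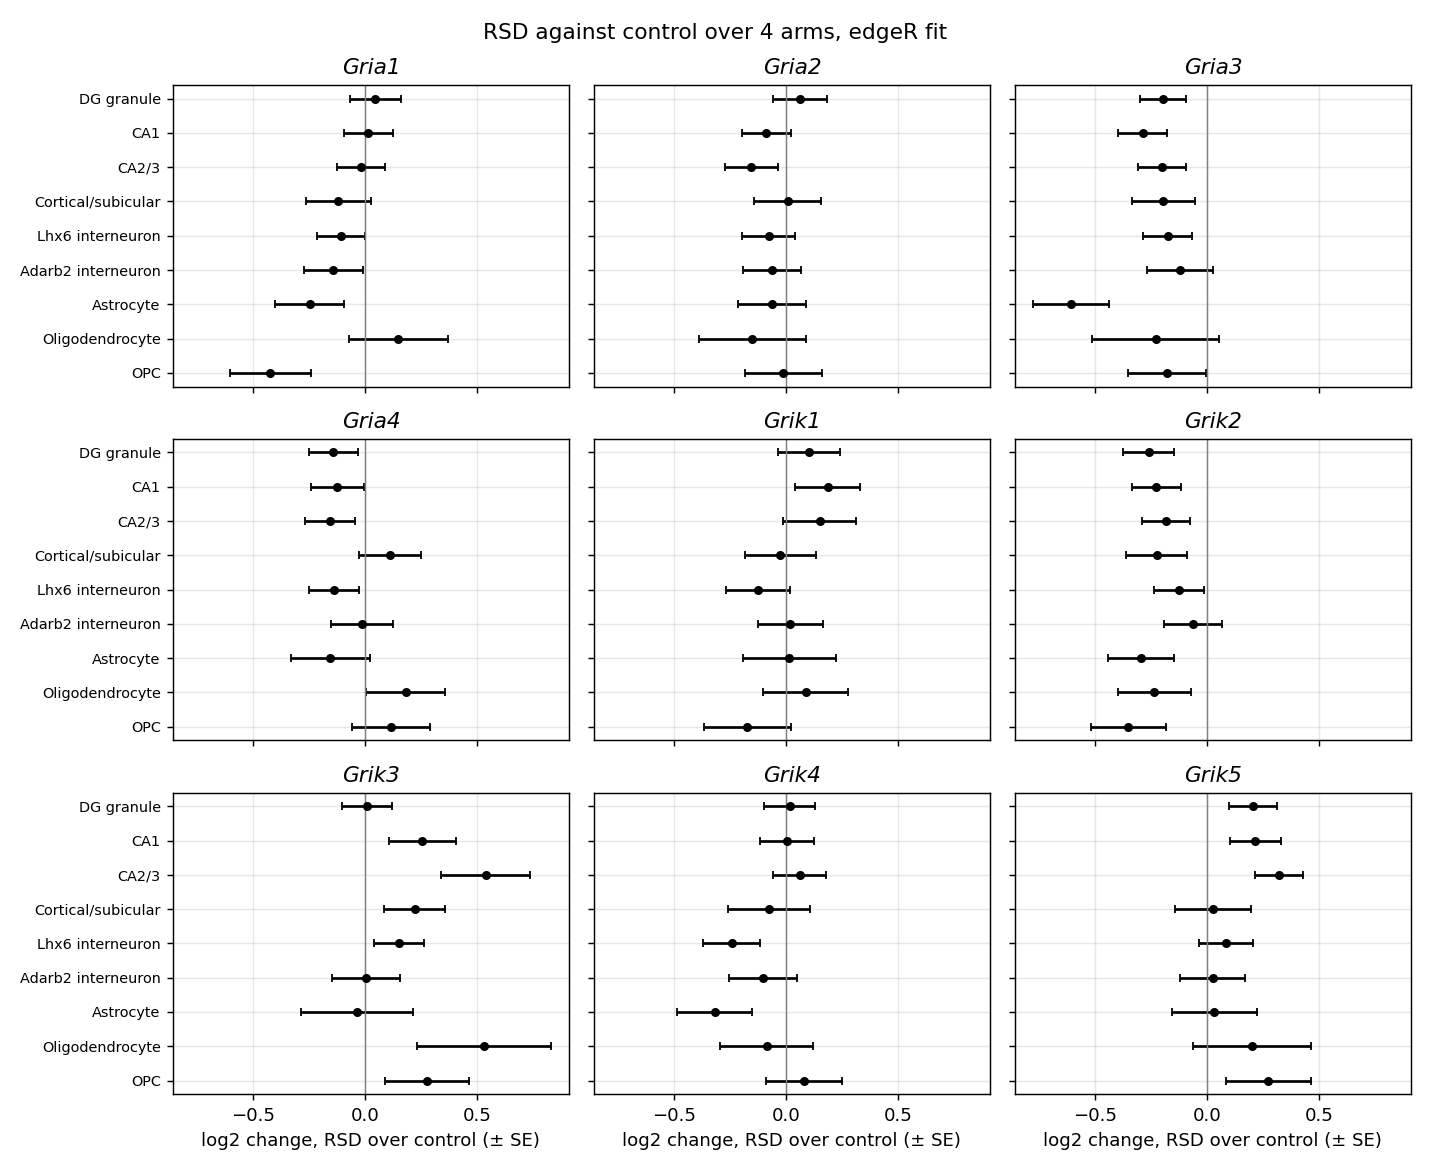
Fitted log2 difference of RSD minus control (edgeR, bars ± SE) for the 9 receptor genes in the 9 classes. Gria3 and Grik2 lie below 0 and Grik5 above 0 in every class, and none of the 81 differences passed the adjusted threshold of 0.05.

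The make-up of the receptors' UMIs comes from the same counts and pools, so a lean in the same direction there adds no separate support. For shares, 4 pairs cannot give a two-sided exact sign-flip p under 0.05, and the smallest p they allow is 1 in 8. The Gria3 share of AMPA UMIs was lower after RSD in 4 of 4 arms in CA1 (10.5% to 8.86%, a difference of -1.66 points ± 0.60, SD over arms), DG (9.61% to 8.24%) and CA2/3 (8.83% to 8.05%). The Grik5 share of kainate UMIs was higher in 4 of 4 arms in CA1 (14.1% to 17.3%), CA2/3 (6.43% to 8.18%) and DG (7.17% to 9.20%). In DG the Grik5 level of the knockout arm was flat, at 203.1 CPM in control and 202.9 CPM after RSD. The Grik2 share was lower in 4 of 4 in CA1 (56.6% to 51.0%) and CA2/3 (34.35% to 30.03%). These 8 comparisons are among the 18 of all 81 that had the smallest p allowed, which with no RSD effect comes up in about 1 in 8. None could pass 0.05 before any correction. Shares within a family are tied to each other and the classes come from the same pools, so the 81 comparisons are not independent. Other classes were less even. The Gria3 share was higher after RSD in 3 of 4 arms in oligodendrocyte precursors, and the Grik5 share was higher in 2 and lower in 2 in cortical or subicular excitatory nuclei.

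Between the vehicle and PLX5622 arms, Gria2 differed in direction in more classes than any other member. In DG its level was 1420 CPM in the Control Vehicle and 1343 CPM in the RSD Vehicle pool, 1510 and 1298 CPM in the WT pools, and 1350 and 1379 CPM in the KO pools. In the PLX5622 arm it was 1102 CPM in the control and 1717 CPM in the RSD pool, the lowest and the highest of the 8. The log2 ratio in that arm was 0.64 (95% counting interval 0.52 to 0.76), against -0.08, -0.22 and 0.03 in the vehicle, wild type and knockout arms. CA2/3 gave the same picture, with 1529, 1519 and 1478 CPM in the vehicle, wild type and knockout controls, 1238, 1282 and 1267 CPM after RSD, and 1147 and 1482 CPM in the PLX5622 arm.

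Over the 6 neuron classes the PLX5622 arm was higher after RSD in all 6, with log2 ratios of 0.30 in CA1, 0.37 in CA2/3, 0.46 in Lhx6 interneurons, 0.80 in cortical or subicular excitatory nuclei and 0.20 in Adarb2 interneurons beside the DG value. In Adarb2 interneurons the counting interval, -0.08 to 0.49, held 0. In an alternative chosen after seeing the data, nuclei under 500 UMIs were left out and the others were thinned to 500 UMIs. The PLX5622 ratio was then 0.13 in CA1, 0.20 in CA2/3 and 0.61 in DG, from fewer nuclei than before. The wild type arm was lower in all 6, at -0.25 to -0.11, and the vehicle arm in all but Adarb2 interneurons (0.13). With 1 pool per condition the difference between arms has no replicate and was not tested. The counting intervals cover counting error only, and the Control PLX5622 and RSD PLX5622 pools were the least deep. The CA1 class held 369 and 257 nuclei in these pools, against 1209 in Control Vehicle and 630 in RSD Vehicle. Nuclei of the unnamed clusters that came mostly from certain pools are outside the classes. The part of this, and of the mix of clusters in DG and CA2/3, in the Gria2 ratios was not tested. Left out, the PLX5622 arm took the fitted Gria2 log2 difference in CA2/3 from -0.16 to -0.28 (edgeR adjusted p = 0.368), in CA1 from -0.09 to -0.18 (0.538) and in DG from 0.06 to -0.08 (0.800), and no class passed the threshold.

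**Figure D5:**
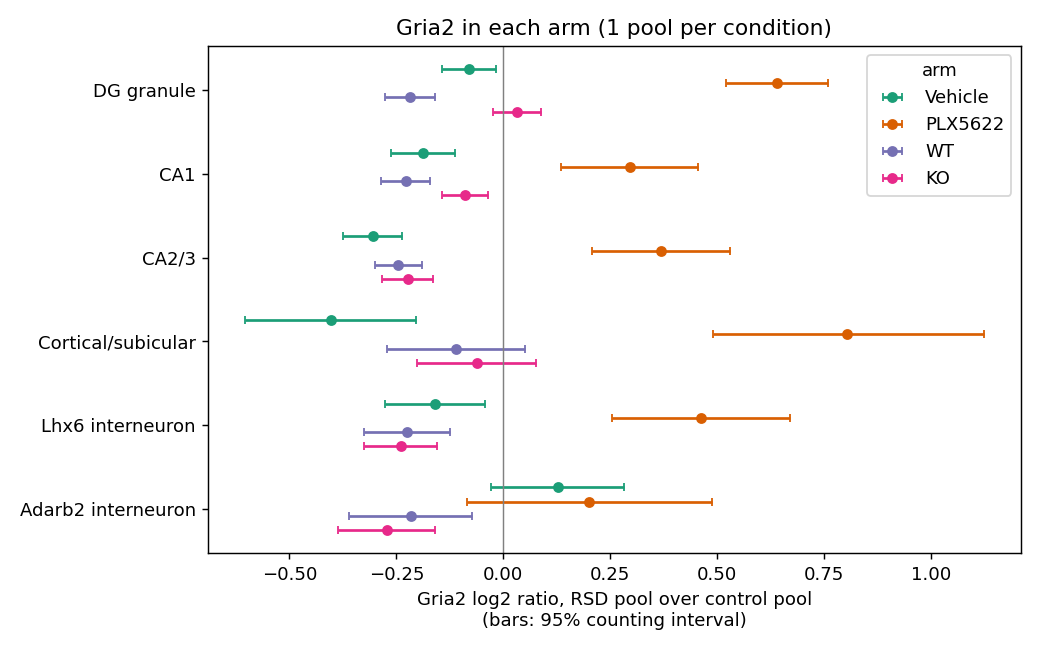
Log2 ratio of Gria2 level, RSD over control pool, in each of the 4 arms and 6 neuron classes, with 95% counting intervals. The PLX5622 arm lies above 0 in all 6 classes (0.20 to 0.80), while the wild type arm lies below 0 in all 6.

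Counted over the family, the vehicle and PLX5622 arms had log2 ratios beyond counting error in opposite directions in 8 of 81 gene-by-class pairs (9.88%, against 0.536% of all tests), and Gria2 gave 5 of the 8. The wild type and knockout arms did so in 10 of 81 (12.3%, against 1.37%), and none of the 10 was Gria2. Genes with many UMIs, as these are, have narrower counting intervals than most, so these shares are not on an equal footing. The arms of 1 comparison hold 4 different pools, and the differences were not tested.

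The PLX5622 diet was compared with vehicle in the same fit, 2 pools against 2. Of 81 tests 0 passed the threshold, against 0.0342% of all tests; 8 had an unadjusted p under 0.05 (9.88%, against 5.33%), and DESeq2 called 0, with 6 at an unadjusted p under 0.05. The smallest adjusted p was for Grik1 in DG, a class in which this gene is near its lowest. Its level was 78.72 and 74.01 CPM in the Control PLX5622 and RSD PLX5622 pools, from 58 and 83 UMIs, against 37.7 and 52.3 CPM in the vehicle pools and 29.9 to 44.7 CPM in the WT and KO pools. The PLX5622 pools were above the other 6, with a log2 difference of 0.83 from vehicle (SE 0.21, edgeR adjusted p = 0.193).

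Grik1 in CA2/3 showed the same order, at 68.7 and 96.1 CPM with PLX5622 and 37.6 and 61.3 CPM with vehicle (log2 difference 0.81, SE 0.26, edgeR adjusted p = 0.782). Grik1 was higher in interneurons and in oligodendrocytes than in DG and CA2/3, so the summed levels of both marker lists are given beside it. For the 18 interneuron markers it was 1884 to 2104 CPM with vehicle and 1770 to 2090 CPM with PLX5622 in DG, with 12 of 18 markers higher on the drug, and 356.8 to 651.7 CPM against 472.6 to 534.4 CPM in CA2/3, with 10 of 18 higher. For the 8 oligodendrocyte markers it was 451.6 to 460.7 CPM with vehicle and 577.8 to 604.0 CPM with PLX5622 in DG, and 230.6 to 278.9 CPM against 311.0 to 343.7 CPM in CA2/3, with 7 of 8 higher and no overlap in either class. The part of such RNA, of depth and of the mix of DG clusters in the Grik1 values was not tested.

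Deletion of neuronal IL-1R1 was compared with wild type likewise. Of 81 tests 0 passed the threshold, against 0.0061% of all tests; 5 had an unadjusted p under 0.05 (6.17%, against 2.61%), DESeq2 called 0 and had 0 at an unadjusted p under 0.05, and the smallest edgeR adjusted p was 0.903. The median size of the difference was 0.1 on the log2 scale for the family and 0.159 for all genes. Grik3 in CA1, at a mean of 28.1 CPM in wild type and 41.0 CPM in knockout pools (log2 difference 0.51), was among the larger neuronal differences and also missed the threshold.

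Of the 27 other genes of these receptors, 0 of 230 gene-by-class tests passed the threshold for RSD, for the diet or for the deletion. At an unadjusted p under 0.05 there were 40 (17.4%, against 9.72% of all tests) for RSD, 18 (7.83%, against 5.33%) for the diet and 10 (4.35%, against 2.61%) for the deletion. The nearest was Prrt1, singled out after its values were seen: its mean level was 78.0 CPM in control and 123 CPM in RSD pools of CA1 (log2 difference 0.60, SE 0.15, edgeR adjusted p = 0.0552), with higher levels in 4 of 4 arms. In DG it was 88.7 and 125 CPM (log2 difference 0.48, edgeR adjusted p = 0.069), and in CA2/3 64.1 and 113 CPM (log2 difference 0.60, edgeR adjusted p = 0.107), again in 4 of 4 arms. Adarb1, which encodes the editing enzyme named above, had log2 differences of -0.33 to 0.21 over the classes.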

How the data were processed

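The authors deposited UMI counts per gene and nucleus from 4 sublibraries of a split-pool (Parse) experiment, each with nuclei of all 8 pools. Per the labels, the deposited pool codes, of no numeric unit, name the condition, and the submitters' processing notes name mm39 and Seurat 4.1.1. The members and gene lists were chosen with earlier results of these data known, and the naming rule was settled after cluster tables were seen. Nuclei over 20% mitochondrial UMIs were removed. Clustering used 2000 variable genes without the 9 members, 30 principal components, 15 neighbours and leidenalg 0.10.2 (resolution 1.0), and clusters were named from marker lists. No doublet caller was run; leaving out the deepest 5% of nuclei was an alternative. Counts were summed per pool and class and fitted in edgeR 4.0.16 (R 4.3.3; TMM, filterByExpr, ~arm + RSD, 3 residual degrees of freedom), with Benjamini-Hochberg adjustment at 0.05 over all genes of a class. The prior degrees of freedom, borrowed from other genes, ran from 12.1 in oligodendrocytes to 35.3 in oligodendrocyte precursors. DESeq2 1.42.0 was an alternative. Shares were tested by exact sign-flip permutation, two-sided. All members were named, with the 2 auxiliary genes of the widest and the 2 of the narrowest class ratio and the 3 genes most like each member. Counting intervals are exact (95%) and cover counting error only. On simulated counts with 200 genes changed 2-fold, the RSD fit recovered 82.5% in DG granule nuclei (11767 genes, 13 false calls) and 58.5% in Adarb2 interneurons (8996 genes, 4 false calls). No column was left out.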

Additional observations from a re-analysis of the deposited data

Results flagged for a closer look

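Among 162 groups of 4 pools (4 control or 4 RSD pools of a gene and class), 13 held a pool whose gap to its nearest neighbour exceeded Dixon's critical value. Chance alone gives about 1 in 20 for normal values. The share over all genes was not counted, so the 13 are not shown to be particular to this family. Of these, 5 were the Control PLX5622 pool: Gria2 in CA2/3 at 1147 CPM (the other controls 1478 to 1529), Grik1 in CA2/3 at 68.7 CPM (34.3 to 37.6), Grik1 in DG at 78.7 CPM (34.3 to 38.8), Grik3 in CA2/3 at 50.1 CPM (22.5 to 26.6) and Grik1 in Lhx6 interneurons at 1750 CPM (1441 to 1469). The RSD Vehicle pool stood apart for Gria1 in oligodendrocytes at 1525 CPM (the other RSD pools 774 to 836), for Grik5 in oligodendrocytes at 160.5 CPM (72.0 to 86.9) and for Grik1 in Adarb2 interneurons at 918 CPM (1551 to 1621). The Control KO pool did so for Gria3 in Adarb2 interneurons at 381.2 CPM (247 to 263) and for Grik4 in Adarb2 interneurons at 528 CPM (312 to 343). The rest were Gria4 in CA1 in the RSD PLX5622 pool at 360.4 CPM (228 to 233), Grik2 in CA1 in the Control Vehicle pool at 773 CPM (834 to 843) and Grik3 in DG in the Control WT pool at 171.7 CPM (199 to 204).

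In 18 of 162 pairs of arms the log2 ratios of RSD to control lay beyond counting error on opposite sides of 0; the differences were not tested. Between the vehicle and PLX5622 arms these were, for Gria2, -0.19 and 0.30 in CA1, -0.30 and 0.37 in CA2/3, -0.080 and 0.64 in DG, -0.16 and 0.46 in Lhx6 interneurons and -0.40 and 0.80 in cortical or subicular excitatory nuclei. The other 3 were Gria1 in CA1 (0.051 and -0.088), Grik1 in cortical or subicular excitatory nuclei (0.51 and -0.64) and Grik4 in DG (-0.15 and 0.27). Between the wild type and knockout arms, Gria1 had 0.12 and -0.06 in CA2/3, 0.061 and -0.24 in Lhx6 interneurons and 0.41 and -0.63 in cortical or subicular excitatory nuclei. Grik4 had 0.46 and -0.17 in CA1, 0.30 and -0.25 in DG and 0.80 and -0.95 in cortical or subicular excitatory nuclei. Grik1 had -0.33 and 0.32 in cortical or subicular excitatory nuclei and -0.33 and 0.47 in oligodendrocyte precursors, Grik2 had -0.25 and 0.25 in Adarb2 interneurons, and Grik3 had 0.28 and -0.18 in DG. For Gria1 and Grik4, all 6 of these had the wild type arm higher and the knockout arm lower after RSD, as did Grik3 in DG. Grik1 and Grik2 went the other way. All of these pairs come from the same WT and KO pools, 1 per condition. How many of all genes point each way was not counted.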

How the results depend on the processing

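For RSD, the count of receptor tests past the threshold was 0 as reported and 1 with no filter on low counts (Gria3 in astrocytes, log2 difference -0.68, edgeR adjusted p = 0.0398). It was 0 under every other alternative run, as was the count for diet and deletion, and leaving out each arm in turn gave 0 to 0. With no replicate block, that is without the arms in the model, the count was 0, the smallest adjusted p was 0.326, and 0 genes of any kind were called in place of 172. That total was 491 with the wild type and knockout arms alone, 652 with no filter, 67 with nuclei thinned to 500 UMIs, 48 without the vehicle arm and 97 without the PLX5622 arm. Thinning here also left out every nucleus under 500 UMIs, so thinned values come from fewer nuclei. Of 27 member changes followed through 243 alternative values, 232 kept their direction and 11 reversed; the cause was not tested. The Gria2 RSD difference became 0.031 in Adarb2 interneurons with thinning and 0.020 without the knockout arm. In cortical or subicular excitatory nuclei it became -0.056 with no filter, -0.032 with thinning, -0.095 with the wild type and knockout arms alone and -0.19 without the PLX5622 arm, and in DG -0.081 and -0.079 under the last pair of settings. The Grik4 deletion difference in astrocytes became -0.49 with thinning and -0.15 without the deepest 5% of nuclei, and that of Gria3 in oligodendrocytes -0.016 with thinning. Shares moved with gene length: interneurons minus principal classes, Gria4 went from 16.4 points to 11.6 per span and 10.0 per exon, Gria2 from -5.92 to -9.21 and -1.78, and Grik1 from 34.3 to 49.6 per exon, while Grik4 in CA2/3 minus CA1 and DG went from 33.7 to 28.4 per span. Thinning and leaving out deep nuclei were added for the Gria2 ratios by arm after seeing the data. Thinned, they became -0.15 (DG) and -0.18 (CA2/3) with vehicle and 0.13 (CA1) and 0.20 (CA2/3) with PLX5622. Thinning left 76 of 81 tests, and resolution 0.5 left 8 classes. At that resolution no cluster was named cortical or subicular excitatory. With 1 pool per condition, 3 residual degrees of freedom and medians of 598 and 628 UMIs a nucleus in the PLX5622 pools, small differences could not be shown.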
